A study of Mus musculus with 6 samples.

Results

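The genes described here are 10 core genes of the Wnt and β-catenin pathway in mouse bone marrow. They are *Ctnnb1*, which encodes β-catenin, the destruction complex genes *Apc*, *Axin1* and *Axin2*, the coreceptor genes *Lrp5* and *Lrp6*, and the 4 transcription factor genes *Lef1*, *Tcf7*, *Tcf7l1* and *Tcf7l2*. They were chosen by name from the 39179 genes listed, and all 10 were among the 15980 genes with enough reads to be tested. The RNA-seq counts came from marrow of 6 littermates. The 3 *MxCDX2* mice were *RsCDX2::Mx1Cre*: they carried a *Rosa26* knockin of the human *CDX2* coding sequence, kept silent by a stop sequence until Cre removes it, and a Cre recombinase driven by the interferon-inducible *Mx1* promoter, which is not restricted to blood cells. The control group held 1 mouse of each of 3 genotypes, *RsCDX2* (control 1), *Mx1Cre* (control 2) and wild type (control 3), so a difference between these genotypes cannot be told apart from the spread between mice. All 6 mice, controls included, were injected 3 times with poly(I:C), an inducer of interferon, at 10 µg per g of body weight at the age of 3 months, and RNA was prepared 6 weeks later. The labels give daily injections and the methods an interval of 2 days.

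The canonical Wnt pathway controls gene expression through the stability of β-catenin. Without a Wnt signal, a destruction complex built on the scaffolds APC and AXIN, with the kinases GSK3β and CK1α, marks β-catenin for degradation. When a Wnt ligand binds a Frizzled receptor and its coreceptor LRP5 or LRP6, the complex is held at the membrane, β-catenin accumulates, enters the nucleus and joins DNA-bound TCF/LEF factors at target genes. In the bone marrow, the pathway is known for its part in stem cell maintenance and in the early steps of T- and B-cell development, and TCF/LEF factors are regulators of lymphoid differentiation.

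Between 38646101 and 49899650 reads per mouse were counted on genes. On the mouse gene *Cdx2*, control mice had 4, 0 and 0 reads against 152, 155 and 183 in *MxCDX2* mice. The knockin is human and reads were aligned to the mouse genome, so these counts do not measure its level. Reads from the knockin and from the mouse gene were not told apart. The groups separated on the first principal component, and the wild-type mouse stood apart from the other control mice on the second. The marrow of *MxCDX2* mice also differed in its marker genes. All 10 erythroid markers fell, the summed normalized count of 7 monocyte markers was 47077 to 60410 in control and 206391 to 280573 in *MxCDX2* mice, and that of 10 B-cell markers was 18990 to 58604 and 5008 to 17118. No marker gene was at 0 in any mouse. In bulk marrow fewer cells of a type and less RNA per cell cannot be told apart. Differences of the coreceptor and TCF/LEF genes are therefore given beside markers below. The same limit holds for every other pathway gene, also where no marker is given beside it.

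None of the 10 genes was called higher in *MxCDX2* mice and 1, *Tcf7l2*, was called lower. A call required a log2 fold change beyond 1 in either direction together with a Benjamini-Hochberg adjusted p-value under 0.05, from the quasi-likelihood test of edgeR over all tested genes. Among all tested genes, 13.6% were called, 4.59% higher and 9.03% lower. The coreceptor genes *Lrp5* and *Lrp6* were higher with an adjusted p-value below 0.05 but a log2 fold change of only 0.50. By the adjusted p-value alone, 3 of the 10 genes differed, 2 higher and 1 lower, where 21.7% of all tested genes did, 9.91% higher and 11.8% lower. At an unadjusted p below 0.05, 3 genes were higher and 2 lower. The share of all tested genes at that level was not computed, but it cannot be below the 21.7% past the adjusted threshold. These counts, and those given below for other lists at this level, are therefore not read as a result. In 3 of the 10 genes every *MxCDX2* mouse lay above every control mouse, and in 2 genes every *MxCDX2* mouse lay below, against 21.4% and 20.7% of all tested genes. The median log2 fold change of the 10 genes was 0.21, with 6 positive and 4 negative values, and that of all tested genes was 0.0021. With DESeq2, 2 of the 10 genes were called, *Tcf7l2* and *Lef1*, both lower, where 15.5% of all genes that it tested were called. All 6 genes of β-catenin, its destruction complex and the coreceptors had positive log2 fold changes, and all 4 TCF/LEF genes had negative ones.

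**Figure D1:**
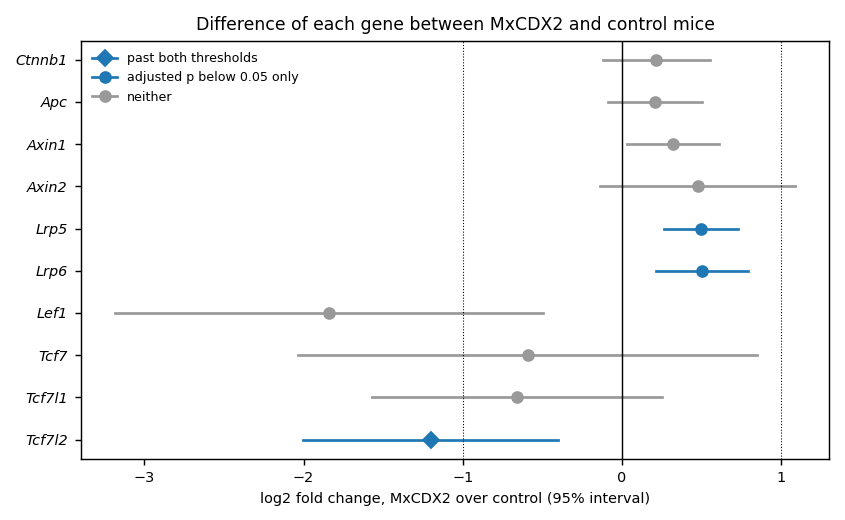
Log2 fold change, *MxCDX2* over control (horizontal axis), of each of the 10 genes, with its 95% interval from edgeR's quasi-likelihood fit over 3 mice per group, and dotted lines at the thresholds of -1 and 1. *Lrp5* and *Lrp6* lie near 0.50 with intervals above 0, and *Tcf7l2* is the gene past both thresholds, while *Lef1* has the lowest value, -1.84, and the widest intervals are those of *Lef1* and *Tcf7*.

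*Ctnnb1* (ENSMUSG00000006932, plus strand of chromosome 9 from 120929216 to 120960507, GRCm38) had the highest level per exon length of the 10 genes. Its normalized count, which is the count brought to a common library size with TMM factors, was 16620, 16192 and 14723 in controls 1, 2 and 3, against 21369, 15876 and 18014 in *MxCDX2* mice 1, 2 and 3. The groups overlapped, since *MxCDX2* mouse 2 lay below controls 1 and 2. The log2 fold change was 0.22 (SE 0.14, edgeR quasi-likelihood adjusted p = 0.323) with a 95% interval from -0.12 to 0.56, so a small decrease and a rise up to that upper bound were both within the error. These are mRNA counts, and β-catenin is controlled largely through the stability of its protein, which was not measured here.

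The scaffold genes of the destruction complex showed differences of similar or slightly larger size. *Apc* (ENSMUSG00000005871, chromosome 18 from 34220924 to 34322552), the large scaffold that is a tumor suppressor of the intestine, had 3161, 3226 and 3468 normalized counts in control mice and 4410, 3423 and 3555 in *MxCDX2* mice. The higher mean of the *MxCDX2* group came mostly from mouse 1, and mouse 2 lay below the wild-type control. The log2 fold change of *Apc* was 0.21 (SE 0.12, edgeR quasi-likelihood adjusted p = 0.278).

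*Axin1* (ENSMUSG00000024182, chromosome 17 from 26138688 to 26195811), the constitutive AXIN scaffold, had 4046, 4189 and 3438 normalized counts in control mice and 5199, 4323 and 5037 in *MxCDX2* mice. All *MxCDX2* mice lay above all control mice, but mouse 2 was close to control 2. On average there were 3891 ± 399 (SD, n = 3) in controls against 4853 ± 466 (SD, n = 3), and the log2 fold change was 0.32 with a 95% interval from 0.03 to 0.61, and the adjusted p was 0.109 (edgeR quasi-likelihood). Of the scaling alternatives, the use of total counts alone, which moved the median of all genes by 0.12 on the log2 scale, brought the adjusted p of *Axin1* to 0.0238 and its log2 fold change to 0.44.

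*Axin2* (ENSMUSG00000000142, chromosome 11 from 108920349 to 108950783) encodes a second AXIN that is itself a general target of β-catenin and acts as a negative feedback. It had fewer reads, with 135, 143 and 165 normalized counts in control mice and 210, 158 and 250 in *MxCDX2* mice. *MxCDX2* mouse 2 lay between the control mice and the other 2 lay above them. Its log2 fold change was 0.48 (SE 0.26, 95% interval from -0.14 to 1.09, edgeR quasi-likelihood adjusted p = 0.234), so the data neither showed a difference of this feedback gene nor limited it to less than the fold threshold. None of the 4 genes from *Ctnnb1* to *Axin2* was called by edgeR or by DESeq2, and 1 of them, *Axin1*, had an unadjusted p below 0.05.

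The coreceptor genes were higher in every *MxCDX2* mouse than in any control mouse. *Lrp5* (ENSMUSG00000024913, minus strand of chromosome 19 from 3584828 to 3686564) had 1987, 1999 and 2014 normalized counts in control mice and 2727, 2669 and 3074 in *MxCDX2* mice. The control mice, although of 3 genotypes, lay within a narrow range, and every *MxCDX2* mouse was well above it. On average there were 2000 ± 13.4 (SD, n = 3) in controls against 2823 ± 219 (SD, n = 3), and the log2 fold change was 0.50 (SE 0.099, 95% interval from 0.26 to 0.73, edgeR quasi-likelihood adjusted p = 0.0155), and the exact permutation test gave a two-sided p of 0.10, the smallest that 3 mice against 3 allow. The whole interval lay under the fold threshold of 1.

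*Lrp6* (ENSMUSG00000030201, minus strand of chromosome 6 from 134446476 to 134566965), the closely related second coreceptor, had 2625, 2767 and 2353 normalized counts in control mice and 3926, 3196 and 3842 in *MxCDX2* mice. The groups did not overlap, with *MxCDX2* mouse 2 nearest to the controls. On average there were 2582 ± 210 (SD, n = 3) in controls against 3654 ± 400 (SD, n = 3), and the log2 fold change was 0.50 (SE 0.12, 95% interval from 0.21 to 0.79, edgeR quasi-likelihood adjusted p = 0.0293). When 1 mouse at a time was omitted, the adjusted p of *Lrp5* stayed below 0.05 in 5 of 6 fits and that of *Lrp6* in 2 of 6. The exception for *Lrp5* was the fit without *MxCDX2* mouse 3, in which its adjusted p was 0.0793, and the largest value for *Lrp6* was 0.116. With the replicate number as a block, the adjusted p was 0.0327 for *Lrp5* and 0.0595 for *Lrp6*. Both coreceptors were higher in the *MxCDX2* group, as were the monocyte markers, of which 5 of 7 were called. Within that group the order differed. *MxCDX2* mouse 2 had the highest monocyte sum, 280573 against 206391 and 243998 in mice 1 and 3, and the lowest *Lrp5* and *Lrp6*. The part of monocytic cells in the coreceptor values was not tested.

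**Figure D2:**
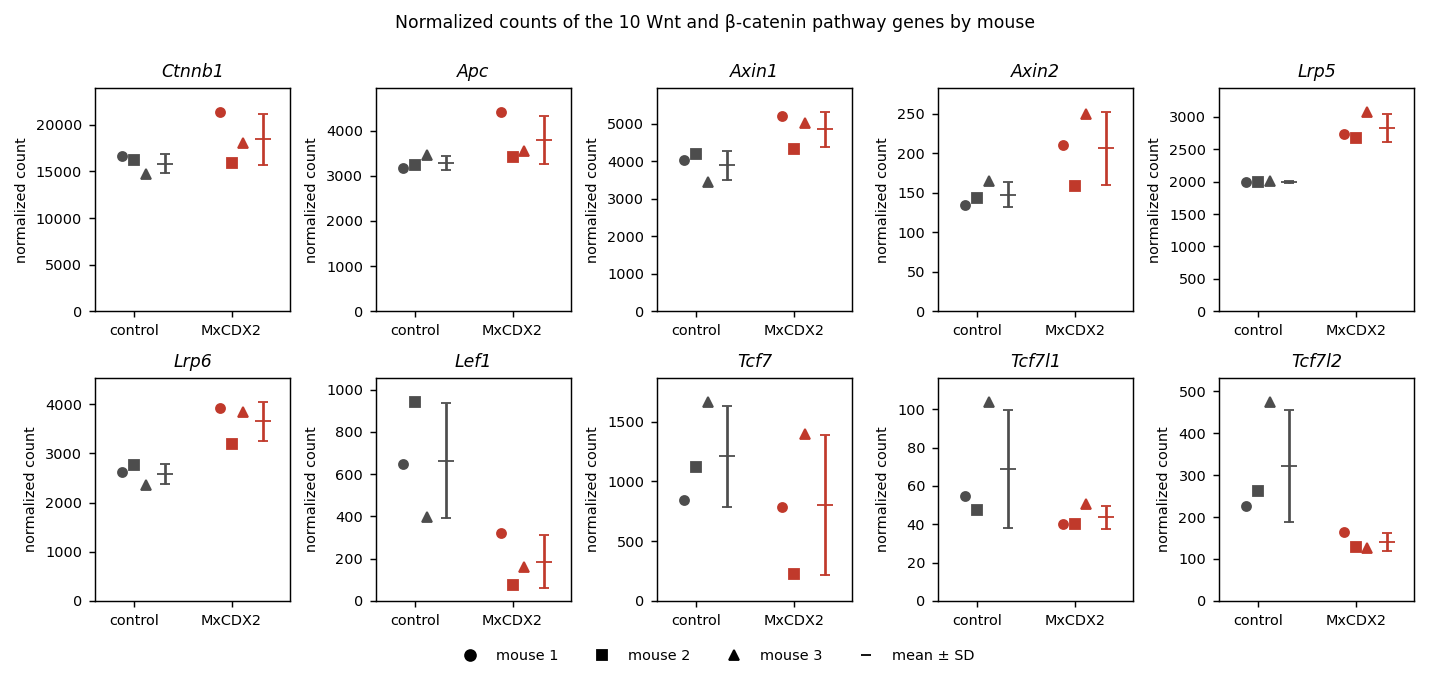
Normalized counts (vertical axes, each from 0) of the 10 genes in each control mouse (grey) and *MxCDX2* mouse (red), with circles, squares and triangles for mice 1, 2 and 3 and bars for the mean ± SD of 3 mice. The groups do not overlap in *Axin1*, *Lrp5* and *Lrp6*, where *MxCDX2* mice are higher, and in *Lef1* and *Tcf7l2*, where they are lower.

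The start regions of several of these genes were read for the letters bound by CDX proteins and by TCF/LEF factors. The search covered the 250 bases before each RefSeq start site (GRCm38.p6) on both strands, for TTTAT, a core of the CDX motif, and CTTTGA, a core of the TCF/LEF motif. Of 32851 mouse promoters of that length, 37.3% held the former and 13.8% the latter. Promoters of 6 of the 10 genes were read, at 12 start sites in all. A CDX match was present at 5 of the 12 start sites, in *Ctnnb1*, *Lef1*, *Tcf7* and *Tcf7l2*, and a TCF/LEF match at 1, in *Lef1*. The window of *Axin2* held neither. Shown here are the first start site of *Tcf7l2*, the called gene, and the fourth start site of *Lef1*, which lies inside the gene. Of the 12 windows read, that of *Lef1* was the only one with matches to both motifs. For comparison, the windows of *Fzd1* and *Sfrp2*, the pathway genes with the largest rises, are given too. Sequences run 5′ to 3′ on the strand of the gene, and capitals mark the matches.
*Tcf7l2*, chr19:55741560-55741809, plus strand: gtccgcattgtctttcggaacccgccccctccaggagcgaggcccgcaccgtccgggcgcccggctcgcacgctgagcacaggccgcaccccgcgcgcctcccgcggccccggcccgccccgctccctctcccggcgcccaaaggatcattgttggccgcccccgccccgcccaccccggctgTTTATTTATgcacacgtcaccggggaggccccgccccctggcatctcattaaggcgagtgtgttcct
*Lef1*, chr3:131156044-131156293, plus strand: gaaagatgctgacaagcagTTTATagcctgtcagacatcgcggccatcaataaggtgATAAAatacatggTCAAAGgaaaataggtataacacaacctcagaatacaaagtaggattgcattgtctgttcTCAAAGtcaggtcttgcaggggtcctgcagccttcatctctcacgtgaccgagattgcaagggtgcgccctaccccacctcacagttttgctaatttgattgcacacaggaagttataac
*Fzd1*, chr5:4758217-4758466, minus strand: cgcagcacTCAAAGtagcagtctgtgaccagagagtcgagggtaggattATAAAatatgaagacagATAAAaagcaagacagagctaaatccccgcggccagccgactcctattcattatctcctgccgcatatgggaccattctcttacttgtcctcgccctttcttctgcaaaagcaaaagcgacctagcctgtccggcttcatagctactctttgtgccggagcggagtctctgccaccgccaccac
*Sfrp2*, chr3:83766071-83766320, plus strand: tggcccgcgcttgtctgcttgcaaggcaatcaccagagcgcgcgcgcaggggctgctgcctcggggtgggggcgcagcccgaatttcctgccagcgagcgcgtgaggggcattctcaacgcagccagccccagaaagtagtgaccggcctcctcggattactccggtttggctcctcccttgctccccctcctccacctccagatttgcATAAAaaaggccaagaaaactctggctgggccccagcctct

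The matches of *Tcf7l2* overlap by 1 base and begin 67 and 63 bases before the start. Those of *Lef1* begin 231 and 193 bases before the start for CDX and 180 and 120 for TCF/LEF. *Fzd1* holds 2 CDX matches, beginning 201 and 184 bases before the start, and a TCF/LEF match at 242, and *Sfrp2* holds 1 CDX match at 41. Binding was not measured here, and matches to such short letters occur in many promoters.

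Relative to their means, the TCF/LEF genes had larger SDs among control mice than the other 6 genes. *Tcf7l2* (ENSMUSG00000024985, plus strand of chromosome 19 from 55741820 to 55933654), which encodes the factor best known as the partner of β-catenin in the intestinal epithelium, had 226, 263 and 475 normalized counts in control mice and 164, 128 and 127 in *MxCDX2* mice. The *MxCDX2* mice lay close together and below all control mice, of which the wild-type mouse was far above the other 2. On average there were 321 ± 134 (SD, n = 3) in controls against 140 ± 21.1 (SD, n = 3), so *Tcf7l2* fell 2.30-fold, a log2 fold change of -1.20 (SE 0.34, 95% interval from -2.00 to -0.40, edgeR quasi-likelihood adjusted p = 0.0464). The call was close to both thresholds, and it was kept in 1 of the 6 fits that left out a mouse. Without the wild-type control the log2 fold change of *Tcf7l2* was -0.79 (adjusted p = 0.0525). It was -1.33 without control 2 (adjusted p = 0.0690), -1.33 without *MxCDX2* mouse 1 (adjusted p = 0.0824), -1.14 without mouse 2 (adjusted p = 0.130) and -1.13 without mouse 3 (adjusted p = 0.150). The call was also lost with the replicate number as a block (-1.13, adjusted p = 0.0802) and with total counts only (-1.10, adjusted p = 0.0662). All of these kept the direction, and DESeq2 gave an adjusted p of 0.00390 for *Tcf7l2* on all 6 mice.

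*Lef1* (ENSMUSG00000027985, plus strand of chromosome 3 from 131110471 to 131224356), a TCF/LEF factor of immature B and T cells, had the largest difference of the 10 genes. Its normalized count was 649, 943 and 399 in the controls and 320, 74.5 and 162 in *MxCDX2* mice. All *MxCDX2* mice lay below all control mice, with the wild-type control and *MxCDX2* mouse 1 nearest to each other. On average there were 664 ± 272 (SD, n = 3) in controls against 185 ± 124 (SD, n = 3), which differed 3.58-fold, a log2 fold change of -1.84 (SE 0.56, 95% interval from -3.19 to -0.49). The adjusted p was 0.0605 (edgeR quasi-likelihood), so *Lef1* was not called. The call depended on the tool, the filter and the mice. DESeq2 gave an adjusted p of 0.00439. On all 6 mice edgeR called *Lef1* when every gene with at least 1 count was kept (log2 fold change -1.82, adjusted p = 0.0473), and it called *Lef1* without the wild-type control (log2 fold change -2.09, adjusted p = 0.0448) and without *MxCDX2* mouse 1 (-2.48, adjusted p = 0.0321).

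*Tcf7* (ENSMUSG00000000782, minus strand of chromosome 11 from 52252371 to 52283014), the factor of T-cell specification, had 841, 1121 and 1667 normalized counts in control mice and 788, 224 and 1394 in *MxCDX2* mice. The groups overlapped widely, since *MxCDX2* mouse 3 was above controls 1 and 2 whereas mouse 2 was far below every other mouse. The log2 fold change of -0.59 had a 95% interval from -2.03 to 0.85 (edgeR quasi-likelihood adjusted p = 0.533), too wide to place *Tcf7* with or apart from *Lef1*, and it ran from -1.25 to -0.14 with a mouse left out.

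*Tcf7l1* (ENSMUSG00000055799, minus strand of chromosome 6 from 72626378 to 72789254), which acts mainly as a repressor in stem cells, had the lowest level per exon length, with 54.9, 47.7 and 104 normalized counts in control mice and 40.3, 40.2 and 50.5 in *MxCDX2* mice. As with *Tcf7l2*, the wild-type control was the highest mouse, and *MxCDX2* mouse 3 lay above control 2. The log2 fold change was -0.66 (edgeR quasi-likelihood adjusted p = 0.268) and was -0.21 without the wild-type control. An antisense gene at this locus, *Gm15401*, had 1 to 35 counts of its own per mouse. Without the strand setting of the counting, it is not known how reads from the overlap of the genes were assigned.

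Lymphoid and other markers are given beside these factors. Of the 10 B-cell markers 4 were called lower, and the 6 mice fell in the same order by *Lef1* and by the summed B-cell markers, from control 2 through control 1, control 3, *MxCDX2* mouse 1 and mouse 3 to mouse 2. The summed erythroid markers gave this order too, from 409427 in control 2 to 14517 in *MxCDX2* mouse 2, so it was not particular to the B-cell markers. These values come from the same libraries. Of the 10 T-cell markers 2, *Cd2* and *Cd4*, were called lower, and in 7 the groups overlapped. The sum of all 10 was 5111, 5218 and 10514 normalized counts in control mice and 4264, 2042 and 3157 in *MxCDX2* mice. *Cd4*, the most abundant of them, had 1701, 1093 and 4068 in control mice and 352, 272 and 473 in *MxCDX2* mice. The wild-type mouse was highest and *MxCDX2* mouse 2 lowest both in this sum and in *Tcf7*, but the mice between them were ordered differently. *MxCDX2* mouse 3 lay above controls 1 and 2 in *Tcf7* and below every control mouse in the T-cell sum. The sum of 6 megakaryocyte markers, of which 3 were called lower, was 32068, 22584 and 265084 in the controls and 10083 to 13798 in *MxCDX2* mice, and that of 8 stromal and endothelial markers, of which 2 were called lower, was 14456 to 54556 and 6003 to 13964. The wild-type control, the highest mouse for *Tcf7l2* and *Tcf7l1*, was the highest for both of these sums. It was also the highest for the T-cell sum and for the sums of 5 NK-cell markers (3670, at most 1972 in any other mouse) and of 6 stem and progenitor markers (11236, at most 7787). The part of these cell types in the values of the TCF/LEF genes was not tested.

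**Figure D3:**
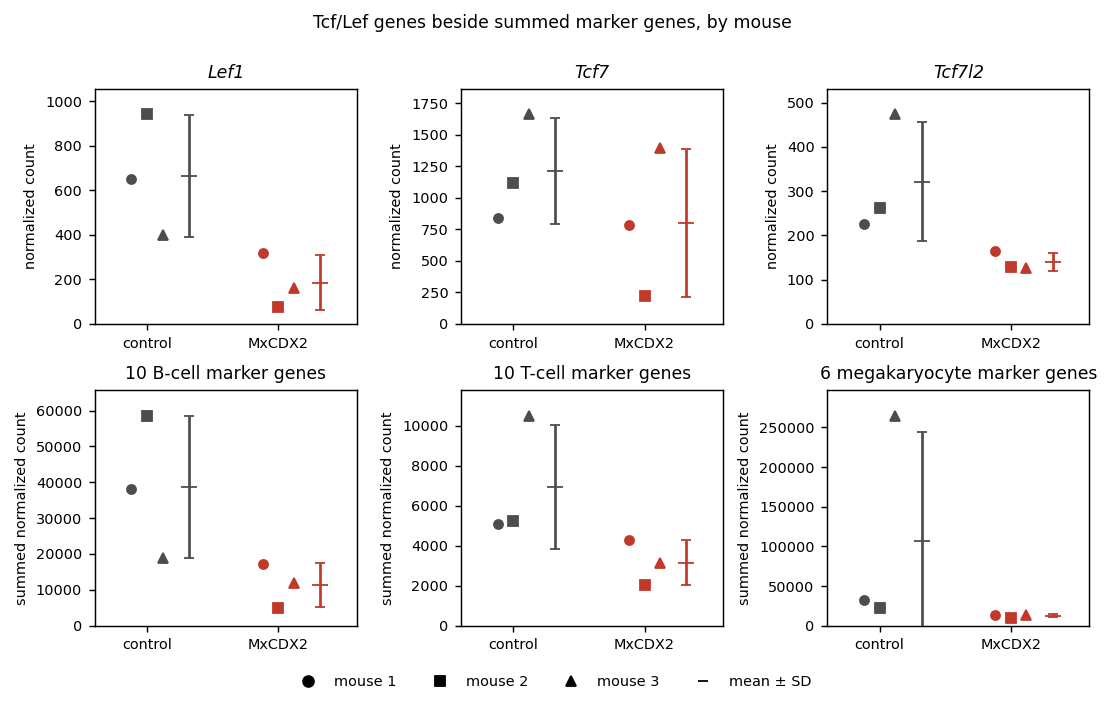
Normalized counts of *Lef1*, *Tcf7* and *Tcf7l2* (upper row) and summed normalized counts of B-cell, T-cell and megakaryocyte markers (lower row) in each mouse, with bars for the mean ± SD of 3 mice per group, cut at the axis origin of 0. *Lef1* and the B-cell sum place the 6 mice in the same order, as does the erythroid sum (not drawn). The wild-type control (grey triangle) is the highest mouse for *Tcf7*, *Tcf7l2* and the T-cell and megakaryocyte sums.

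To compare genes with each other, normalized counts were divided by exon length and scaled to the library size (RPKM). On this scale the control means ran from 67.1 for *Ctnnb1* through 22.4 for *Axin1* and 10.1 for *Tcf7* to 4.52 for *Lrp5*, 4.48 for *Apc* and 4.15 for *Lrp6*, and then to 1.66 for *Lef1*, 0.806 for *Tcf7l2*, 0.590 for *Axin2* and 0.386 for *Tcf7l1*. In control mice the range of *Apc* overlapped with those of *Lrp5* and *Lrp6*, whereas *Lrp5* lay above *Lrp6* in each control mouse. The ranges of *Lef1* and *Tcf7l2* overlapped too, and *Tcf7l2* was above *Lef1* in the wild-type mouse. *Tcf7l2* was above *Axin2* and *Axin2* above *Tcf7l1* in each control mouse, although their ranges across mice overlapped. In *MxCDX2* mice, the RPKM level of *Axin2*, 0.822, was above those of *Lef1*, 0.464, and *Tcf7l2*, 0.351. *Tcf7* thus made up most of the TCF/LEF mRNA in every mouse, 73.8%, 74.1% and 83.4% of the summed RPKM of the 4 factors in control mice and 82.1%, 71.9% and 92.1% in *MxCDX2* mice. The share of *Lef1* was 17.0%, 18.6% and 5.97% in the controls and 9.96%, 7.13% and 3.20% in *MxCDX2* mice. The groups overlapped in this share, because the wild-type control had less *Lef1* and more *Tcf7* than the other controls. The summed RPKM of the 4 factors was 9.54, 12.7 and 16.7 in the controls and 8.04, 2.61 and 12.7 in *MxCDX2* mice, with *MxCDX2* mouse 2 far below the rest.

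Of 11981 tested genes that averaged at least 100 normalized counts, the 3 whose log2 level followed *Tcf7l2* most closely over the 6 mice were *Cd5l*, which encodes a secreted protein of macrophages (Pearson's r = 0.999), *Ripor3* (r = 0.995) and *Gnb4*, a G protein subunit gene (r = 0.994). These are descriptions of 6 libraries that share their group difference. *Cd5l* had 1191, 1755 and 7404 normalized counts in control mice and 476, 238 and 220 in *MxCDX2* mice, so it shared with *Tcf7l2* both the high value of the wild-type control and the lower values of all *MxCDX2* mice.

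Larger differences were found among other genes of the pathway. Of 120 further genes listed by role, 87 were tested, and 9 were called higher and 9 lower (20.7% of those tested, against 13.6% of all genes). Their median log2 fold change was -0.03.

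Among the Frizzled and other Wnt receptors, 9 of 13 were tested, 2 rose and 2 fell. *Fzd1*, a Frizzled receptor gene on chromosome 5 whose start region is shown above, had 174, 76.5 and 165 normalized counts in control mice and 2464, 2039 and 2768 in *MxCDX2* mice, with a log2 fold change of 4.13 (SE 0.35, edgeR quasi-likelihood adjusted p = 0.00156). The genes of its partners at the membrane, *Lrp5* and *Lrp6*, had log2 fold changes of 0.50 each. *Fzd7* rose by 1.13 on the log2 scale (edgeR quasi-likelihood adjusted p = 0.00674), and *Ryk*, which encodes a Wnt-binding receptor outside the Frizzled family, fell by 2.00 (adjusted p = 0.00570). *Fzd9*, at 29.2 normalized counts on average in control mice, fell by 2.42 (edgeR quasi-likelihood adjusted p = 0.0182).

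Of 16 secreted or surface inhibitors, 8 were tested and 3 rose. *Sfrp2*, which encodes a secreted Wnt-binding protein of the Frizzled-related family, had 5.11, 0.993 and 5.47 normalized counts in control mice and 287, 423 and 501 in *MxCDX2* mice, with a log2 fold change of 6.68 (SE 0.56, edgeR quasi-likelihood adjusted p = 0.00156). *Kremen1*, a DKK receptor gene whose protein removes LRP6 from the membrane, rose by 1.16 on the log2 scale (edgeR quasi-likelihood adjusted p = 0.00939), and *Notum*, a Wnt deacylase gene with at most 50.9 normalized counts in any mouse, by 3.87 (adjusted p = 0.0235). Without the replicate number as a block, edgeR called none of the inhibitors lower on all 6 mice, with 3 lower at an unadjusted p below 0.05. DESeq2 called 2 lower, the secreted Frizzled-related genes *Sfrp1* and *Sfrp4*, which were named after their values were seen. With edgeR, *Sfrp4* had a log2 fold change of -2.24 (adjusted p = 0.0688) and of -2.30 with the replicate block (adjusted p = 0.00623), and *Sfrp1* one of -1.82 (adjusted p = 0.0735) and of -1.66 with the block (adjusted p = 0.0353).

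Of 19 ligand genes, 7 were tested and 1 was called, *Wnt6*, which had 4.96 to 8.95 normalized counts in control mice and 16.5 to 27.4 in *MxCDX2* mice and was called in none of the 6 fits that left out a mouse. DESeq2 also called *Wnt10b* lower, named after its values were seen, which had 34.5, 40.7 and 39.2 normalized counts in the controls and 23.3, 5.88 and 13.1 in *MxCDX2* mice (DESeq2 log2 fold change -1.44, adjusted p = 0.0453), and for which the adjusted p of edgeR was 0.0841. *Wls*, which carries Wnt ligands to the cell surface, rose by 1.10 on the log2 scale (edgeR quasi-likelihood adjusted p = 0.00214). Of the R-spondin and Lgr genes, which strengthen Wnt reception, 6 of 9 were tested. *Rspo1* rose by 2.10 (edgeR quasi-likelihood adjusted p = 0.00436), from 21.8 to 94.4 normalized counts on average. *Rspo2* had 11.5, 19.9 and 160 normalized counts in the controls and at most 2.94 in *MxCDX2* mice (log2 fold change -5.23, edgeR quasi-likelihood adjusted p = 0.0374), with its highest value in the wild-type control, as for *Tcf7l2*. Without that mouse the log2 fold change of *Rspo2* was -3.19 (adjusted p = 0.0366). *Wnt6*, *Fzd9*, *Notum*, *Rspo1*, *Rspo2* and *Nkd2* lie outside the rule for named genes and were named after their values were seen. They had few reads, and with a mouse left out *Rspo1* was called in all 6 fits, whereas *Fzd9* was called in 4, *Rspo2* in 3, and *Notum* and *Nkd2* in 2 of the 6 fits.

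Of 20 genes of the cytoplasmic relay and of β-catenin turnover, 19 were tested, and 2 fell. *Btrc*, which encodes the ubiquitin ligase subunit that recognizes phosphorylated β-catenin as well as other proteins, had 2940, 3140 and 2269 normalized counts in control mice and 1104, 806 and 869 in *MxCDX2* mice, with a log2 fold change of -1.59 (SE 0.18, edgeR quasi-likelihood adjusted p = 0.00288). The summed erythroid markers, 395735, 409427 and 318311 in controls and 65820, 14517 and 30259 in *MxCDX2* mice, placed the mice in the same order as *Btrc*. The part of erythroid cells in the *Btrc* values was not tested. *Nkd2*, an inhibitor of the Dishevelled relay with few reads, fell by 1.61 (edgeR quasi-likelihood adjusted p = 0.0168). The kinase genes of the destruction complex, *Gsk3b* and *Csnk1a1*, had log2 fold changes of -0.03 (SE 0.12, adjusted p = 0.880) and 0.08 (SE 0.10, edgeR quasi-likelihood adjusted p = 0.627), and the sign of *Gsk3b* turned with total counts alone. On all 6 mice, none of these genes was called higher by edgeR or DESeq2, with 4 higher at an unadjusted p below 0.05. Of 17 tested nuclear cofactor genes, edgeR and DESeq2 called none on all 6 mice, with 2 higher and 1 lower at an unadjusted p below 0.05.

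**Figure D4:**
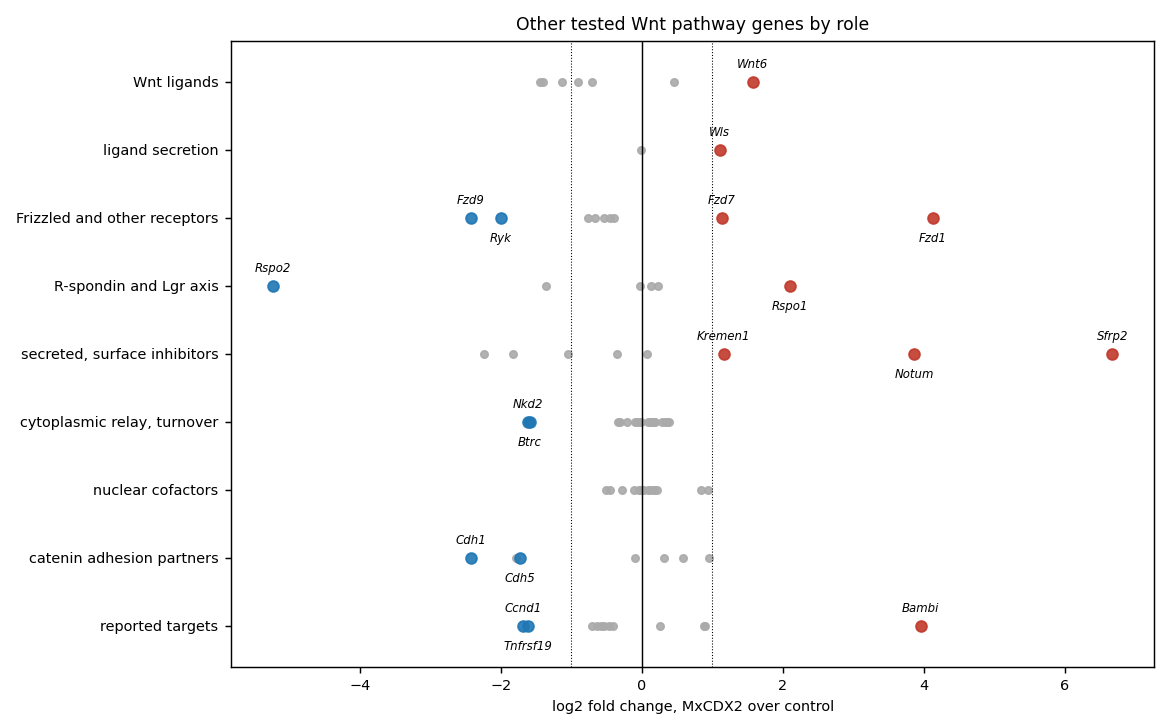
Log2 fold changes, *MxCDX2* over control (horizontal axis), of the 87 tested pathway genes other than the 10 core genes, each a point in the row of its role, with called genes in red (higher) or blue (lower) and named, and dotted lines at -1 and 1. *Sfrp2* at 6.68, *Fzd1* at 4.13 and *Bambi* at 3.96 lie farthest to the right, whereas the points of the cytoplasmic relay and nuclear cofactors lie between -1 and 1 except *Nkd2* and *Btrc*.

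β-Catenin also holds cadherins to the cytoskeleton, and 7 of 8 genes of this adhesion complex were tested. *Cdh1*, the E-cadherin gene, had a mean normalized count of 735 ± 132 (SD, n = 3) in the controls and fell to 137 ± 53.1 (SD, n = 3), a log2 fold change of -2.42 (edgeR quasi-likelihood adjusted p = 0.00531). *Cdh5*, the cadherin gene of endothelial cells and 1 of the 8 stromal and endothelial markers, fell by 1.73 (edgeR quasi-likelihood adjusted p = 0.0420), and by 1.21 without the wild-type control, where it was not called (adjusted p = 0.0666). On all 6 mice, none of the adhesion genes was called higher by edgeR or DESeq2, with 2 higher at an unadjusted p below 0.05.

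Genes often reported as Wnt targets went in both directions. Apart from *Axin2*, *Lef1* and *Tcf7*, 16 were tested, 2 rose and 2 fell. *Bambi*, which is better known as an inhibitor of TGF-β signaling, rose by 3.96 (edgeR quasi-likelihood adjusted p = 0.000696), and *Notum*, given above, was the other. *Ccnd1*, the cyclin D1 gene, fell by 1.69 (edgeR quasi-likelihood adjusted p = 0.0161), but was not called without *MxCDX2* mouse 3 (adjusted p = 0.0724), and *Tnfrsf19* fell by 1.62 (adjusted p = 0.0436) and was called in 2 of the 6 fits that left out a mouse and not with the replicate block (adjusted p = 0.0797). *Myc* had a log2 fold change of 0.27 (SE 0.17, edgeR quasi-likelihood adjusted p = 0.317). The target genes among the 10 core genes differed in sign as well, with 0.48 for *Axin2*, -0.59 for *Tcf7* and -1.84 for *Lef1*, and none of these 3 was called by edgeR.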

How the data were processed

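Bone marrow mRNA was sequenced as stranded libraries. The authors aligned reads with STAR (version 2.5) to GRCm38 (Ensembl release 90 in the methods), counted them with HTSeq (version 0.6.1) and deposited raw counts per gene for each mouse. The strand setting of the counting is not given in the sources used here. Rows that name no gene (no feature, 9.22% to 14.1%, and ambiguous, 2.99% to 3.16%) were left out. Symbols and exon lengths came from GENCODE M21 (GRCm38), which held 37693 of the 39179 identifiers.

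In R 4.3.3 with edgeR 4.0.16, genes were filtered with filterByExpr, scaled by TMM and tested with glmQLFit and glmQLFTest, with Benjamini-Hochberg adjustment over 15980 genes. The SE was derived from the F statistic. After the methods, genes were called at a log2 fold change beyond 1 in either direction with an adjusted p under 0.05. The script was tested on simulated data. Alternatives were DESeq2 1.42.0, other scalings and filters, no fold threshold, the replicate number as a block and the omission of each mouse in turn. Other pathway genes were named if called and averaging at least 100 normalized counts, at most 4 per list, by size of change, with *Gsk3b*, *Csnk1a1*, *Myc*, *Ccnd1*, *Bambi* and *Cdx2* added. The members and lists were chosen with earlier results of these data known.

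Each sample is 1 mouse, no libraries of a group agreed within counting noise, and at this depth the spread between mice limits the precision. Genes overlapping the 10 members had at most 41 counts in any mouse, whereas *Ccnd1* overlaps a gene with 847 to 1258 counts.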

Additional observations from a re-analysis of the deposited data

How the results depend on the processing

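Of the 10 core genes, edgeR's quasi-likelihood test called 1. The number was 0 with total counts only and 0 with the replicate block, 2 with every gene of at least 1 count, 2 with DESeq2, 3 without a fold threshold, and 0 to 1 when each mouse was left out. The number of other pathway genes called was 18, and 11 to 17 with a mouse left out. Over all genes, 2177 were called, 734 higher and 1443 lower. Without a fold threshold, 3471 were called, 1583 of them higher. With a mouse left out, 1205 to 2406 were called, 511 to 924 higher and 694 to 1482 lower, each lowest without *MxCDX2* mouse 3. Over the alternatives, the log2 fold changes of the 10 core genes kept their direction, 127 values on the same side of the threshold and 13 not. The log2 fold change of *Gsk3b*, -0.03, became 0.088 with total counts only and ran from -0.097 to 0.056 with a mouse left out, positive without control 1 (0.056) and without *MxCDX2* mouse 2 (0.031). The control numbers follow the order of the samples, so they only name mice. Across genes, the deviations of mice with the same number from their group means had correlations of 0.170, 0.286 and 0.182, and each mouse correlated best with its own number. Deviations from a group mean cancel out within the group, so some positive correlations had to occur. How often such a match arises without pairing was not tested. With the replicate block, 2205 genes and 19 other pathway genes were called, and the adjusted p-values of *Tcf7l2*, *Lrp5* and *Lrp6* were 0.0802, 0.0327 and 0.0595. The 3 mice per group limit the precision, and 0.10 is the smallest two-sided p of an exact permutation test.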
